A study of Macaca mulatta with 9 samples.

Results

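Rhesus macaque embryonic stem (ES) cell lines were compared here as 2 sets, ORMES9, ORMES10 and ORMES13 against ORMES6 and ORMES7. These lines account for 7 of the 9 arrays of the series: 3 arrays of ORMES9, ORMES10 and ORMES13, and 4 arrays of ORMES6 and ORMES7. The sets were chosen from an earlier look at these same expression values, so their differences are given as a description and none was tested. ES cells come from the early embryo, keep dividing in culture and can form every tissue of the body. All 5 lines were grown alike on a feeder layer of mouse embryonic fibroblasts, with serum and the growth factor FGF2, and cells of good morphology were taken by hand for total RNA. ORMES6 was profiled 3 times, as biological replicates A to C, and each other line on 1 array, so no error within ORMES7, ORMES9, ORMES10 or ORMES13 could be measured. The remaining 2 arrays hold pooled embryoid bodies (EBs), floating aggregates of ES cells that had differentiated without guidance for 30 days, and adult skin fibroblasts. They give the level of a gene in differentiated cells and entered none of the counts between lines.

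Colonies of ES cells carry a core network of transcription factors around POU5F1, SOX2 and NANOG. They can differentiate into the first embryonic and extraembryonic lineages, among them mesoderm with its collagen-rich matrix, endoderm with its secreted plasma proteins, and trophoblast and amnion with their simple epithelia. Genes of several of these lineages differed between the lines.

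Levels are log2(signal + 16), where signal is the probe set intensity as deposited, and a gene is read from its brightest probe set over the ES arrays. A difference is the mean of ORMES9, ORMES10 and ORMES13 minus the mean of ORMES6 and ORMES7, with ORMES6 first averaged over its replicates. The added 16 shrinks the differences of dim genes. Of 63 genes chosen for naming that have several probe sets and do not overlap between the sets, 18 had every probe set apart in the same direction and 45 did not. A mean ± SD is over 3 lines in ORMES9, ORMES10 and ORMES13 and over 2 lines in ORMES6 and ORMES7. The array measures RNA of a whole sample, so a higher number of cells of some type and more RNA per cell cannot be told apart.

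All 5 lines carried the markers of ES cells. POU5F1 encodes the OCT4 protein and read 12.14, 11.90 and 12.01 on the ORMES9, ORMES10 and ORMES13 arrays, against 12.37, 12.42 and 12.89 on ORMES6 A, B and C and 12.47 on ORMES7. It read 7.36 in EBs and 5.16 in fibroblasts. Its difference of -0.49 was small, yet every array of ORMES9, ORMES10 and ORMES13 lay below every array of ORMES6 and ORMES7. SOX2, NANOG, the RNA-binding protein LIN28A and the DNA methyltransferase DNMT3B overlapped between the sets. The summed signal of these 5 markers was 25114, 25136 and 18973 in ORMES9, ORMES10 and ORMES13, against 21515, 22322 and 28750 in ORMES6 A, B and C and 23779 in ORMES7. It was 2602 in EBs and 48.6 in fibroblasts. All 5 were called Present in every line, where a probe set is Present at a deposited detection p-value below 0.05 and Absent above 0.065.

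Across all 19782 genes the sets separated by correlation but not by the typical difference of a gene. Pearson r across genes, which are not independent replicates, was 0.964 to 0.971 among ORMES9, ORMES10 and ORMES13, and 0.963 to 0.972 between ORMES7 and the ORMES6 replicates. Over the 12 pairs that cross the sets it was 0.935 to 0.960. The median absolute difference was 0.29 to 0.34 among ORMES9, ORMES10 and ORMES13 and 0.33 to 0.46 across the sets, against 0.30 to 0.38 between ORMES7 and the ORMES6 replicates. By this measure ORMES7 was nearer to ORMES9 (0.33) and ORMES10 (0.34) than to ORMES6 A (0.38) or B (0.37). The share of probe sets called Present was 42.4%, 42.5% and 42.2% in ORMES9, ORMES10 and ORMES13, against 39.5% in the ORMES6 array with detection values and 39.9% in ORMES7. The hybridisation spikes, transcripts added before hybridisation, had geometric mean signals of 905 to 1148 in ORMES9, ORMES10 and ORMES13, against 571 to 1157 in ORMES6 and ORMES7, where replicates A and B were the low arrays. The 3' over 5' ratio of actin, a measure of RNA length, was 49.8 to 66.2 in ORMES9, ORMES10 and ORMES13, against 22.7 to 59.5 in ORMES6 and ORMES7. That of GAPDH was 3.79 to 5.20 in ORMES9, ORMES10 and ORMES13, against 2.55 to 4.23 in ORMES6 and ORMES7. The part of detection, spike level and RNA length in the differences was not tested.

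A total of 163 genes (0.824% of all genes) were 4-fold or more higher in ORMES9, ORMES10 and ORMES13 with every array above every array of ORMES6 and ORMES7, and 14 genes (0.0708%) were 4-fold or more lower with every array below. Since the sets were chosen on this contrast, these shares are a description and nothing is read from them. Without a size limit, 2092 genes (10.6%) were higher on every array and 1301 (6.58%) lower. The median difference over all genes was 0.04 on arrays that the authors' scaling had brought to the same trimmed mean. The genes nearest the 4-fold limit were EVER1 and HGF inside it (differences of 2.001 and 2.007) and MALAT1 and THBD outside it (1.99 each), and on the lower side FLJ30058 inside (-2.16) and GNG11 outside (-1.996), all 6 of them named after their values were seen. With the median over the probe sets of a gene in place of its brightest probe set, 83 genes were higher and 10 lower. The lower count was 32 without ORMES7 and 31 without ORMES10, and the higher count ran from 142 to 209 without any 1 array.

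**Figure D1:**
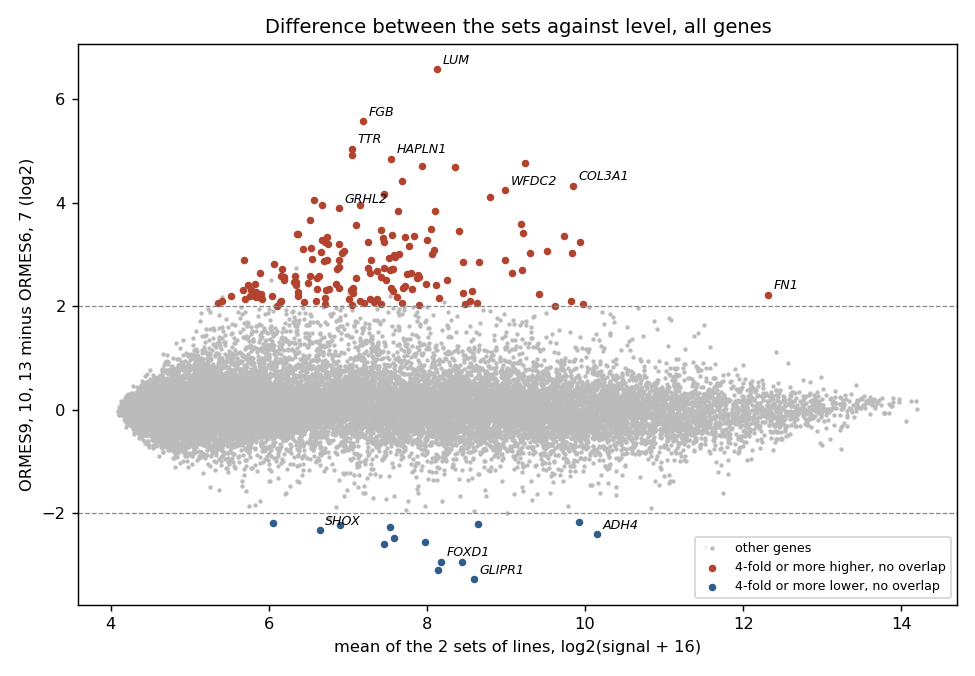
Each point is 1 of 19782 genes, with its mean level over both sets on the x axis, log2(signal + 16), and the difference, ORMES9, ORMES10 and ORMES13 minus ORMES6 and ORMES7, on the y axis. The 163 genes 4-fold or more higher on every array (red) reach 6.57 at LUM, and the 14 lower ones (blue) reach -3.28 at GLIPR1.

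The largest difference of a named gene belonged to lumican, LUM, a small leucine-rich proteoglycan that binds collagen fibrils. LUM read 10.46, 11.40 and 12.37 on the ORMES9, ORMES10 and ORMES13 arrays, against 4.68, 4.62 and 4.80 on ORMES6 A, B and C and 4.98 on ORMES7. These are linear signals of 1396, 2683 and 5283 in ORMES9, ORMES10 and ORMES13, against 9.60, 8.60 and 11.9 in ORMES6 A, B and C and 15.5 in ORMES7, and LUM was called Present in ORMES7 and Absent in the ORMES6 array with detection values. The difference was 6.57, 95.2-fold on the offset scale, between means of 11.41 ± 0.95 in ORMES9, ORMES10 and ORMES13 and 4.84 ± 0.20 in ORMES6 and ORMES7. The signals of ORMES6 and ORMES7 lay below the added 16, so this fold depends on the offset. Both of the 2 probe sets of LUM were higher on every array, but the other one differed by only 2.70. LUM read 12.53 in EBs and 12.03 in fibroblasts, close to ORMES13. Decorin, DCN, a proteoglycan of the same family, read 7.94, 9.36 and 11.23 in ORMES9, ORMES10 and ORMES13, against 4.995, 4.99 and 5.04 in ORMES6 A, B and C and 4.19 in ORMES7, a difference of 4.91. ORMES13 stood above ORMES10 and ORMES10 above ORMES9 for both genes. Only 4 of the 7 probe sets of DCN were higher on every array, with differences over its probe sets of -0.12 to 4.91.

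HAPLN1 encodes the link protein that ties proteoglycans to hyaluronan. It read 9.29, 9.60 and 11.03 in ORMES9, ORMES10 and ORMES13, against 5.43, 5.46 and 4.86 in ORMES6 A, B and C and 5.01 in ORMES7, and was called Absent in ORMES7 and the ORMES6 array with detection values. The difference was 4.84, between means of 9.97 ± 0.93 in ORMES9, ORMES10 and ORMES13 and 5.13 ± 0.17 in ORMES6 and ORMES7, and all 3 of its probe sets were higher on every array. Unlike LUM and DCN it was brighter in ORMES9, ORMES10 and ORMES13 than in either differentiated sample, which read 7.68 in EBs and 6.67 in fibroblasts. Of 20 proteoglycans and link proteins, 6 were higher on every array, as were 10.6% of all genes, and none was lower, and 3 passed the 4-fold limit (LUM, DCN and HAPLN1). The median difference of the list was 0.57, so most of its members differed far less than these 3. Counts in this and every later list are to be read beside all genes, of which 10.6% were higher and 6.58% lower on every array. Passing the 4-fold limit as well were 0.824% of all genes higher and 0.0708% lower.

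**Figure D2:**
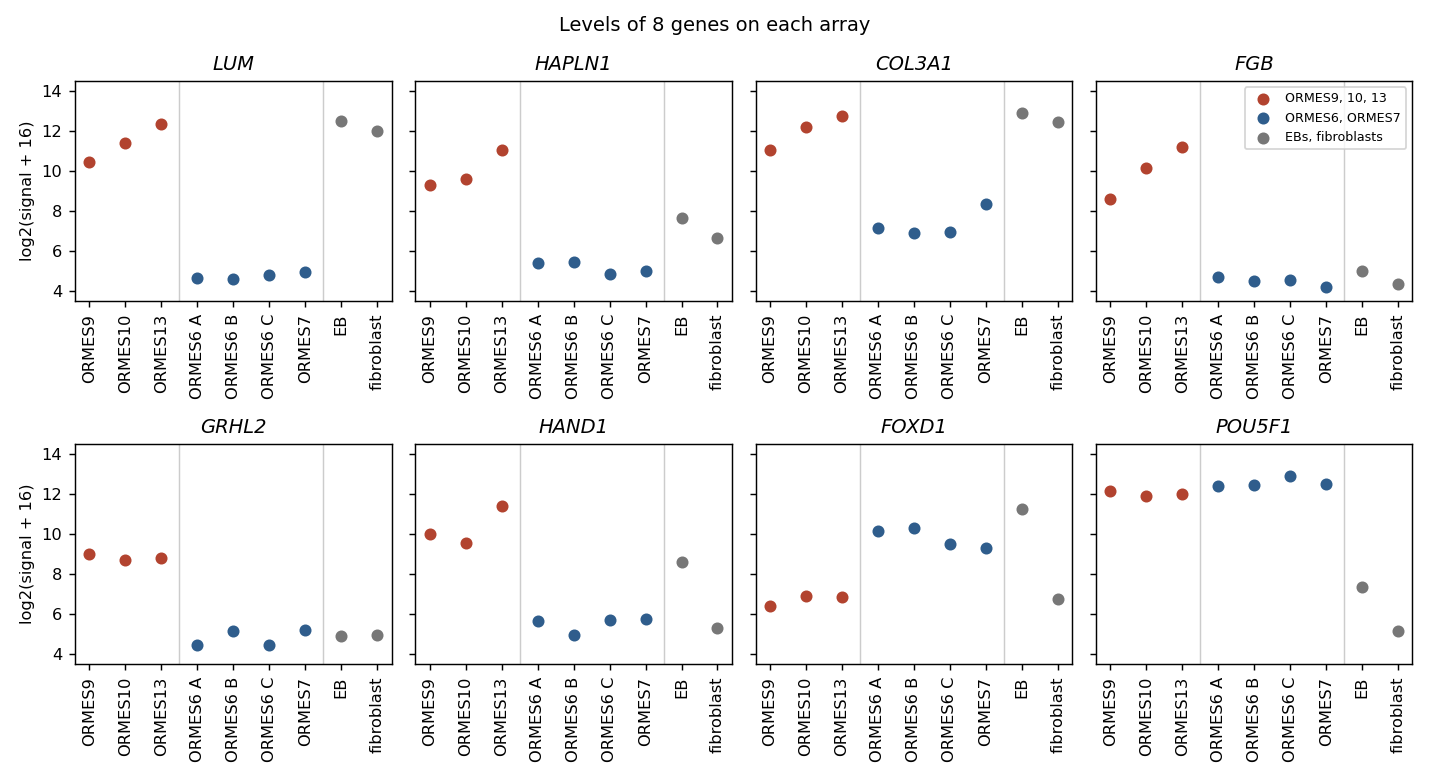
Level of 8 genes on each array, log2(signal + 16), 1 point per array, with ORMES9, ORMES10 and ORMES13 in red, ORMES6 A to C and ORMES7 in blue and EBs and fibroblasts in grey. LUM, HAPLN1, COL3A1, FGB, GRHL2 and HAND1 lie higher on every red array than on every blue one, FOXD1 lower, and POU5F1 differs by -0.49.

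Collagen chains were among the other large differences. COL3A1, the chain of the fibrillar type III collagen of soft connective tissue, read 11.06, 12.22 and 12.74 in ORMES9, ORMES10 and ORMES13, against 7.15, 6.92 and 6.98 in ORMES6 A, B and C and 8.34 in ORMES7. It was called Present in all 5 lines, and ORMES7 lay above the 3 replicates of ORMES6. The difference was 4.33, between 12.01 ± 0.86 in ORMES9, ORMES10 and ORMES13 and 7.68 ± 0.94 in ORMES6 and ORMES7. All 3 probe sets of COL3A1 were higher on every array, with differences of 1.795 to 4.33. COL5A2, a chain of the type V collagen that nucleates fibrils, read 9.39, 11.17 and 11.90 in ORMES9, ORMES10 and ORMES13, against 7.67, 7.81 and 8.25 in ORMES6 A, B and C and 7.66 in ORMES7. COL6A3, a chain of the microfibrillar type VI collagen, read 9.13, 10.16 and 12.02 in ORMES9, ORMES10 and ORMES13, against 6.02, 6.42 and 7.19 in ORMES6 A, B and C and 8.53 in ORMES7. For COL6A3 the gap was narrow, since ORMES7 came within 0.60 of ORMES9. Of 34 collagen chains 13 were higher on every array, 5 of them 4-fold or more, and the median difference was 1.02. The chains COL10A1 and COL11A1 were lower on every array (-0.66 and -1.46). Here and for the other lists, the lower members were named after their values were seen. COL1A2, a chain of the most abundant fibrillar collagen, overlapped, with 8.55, 11.21 and 8.03 in ORMES9, ORMES10 and ORMES13, against 9.66, 9.67 and 10.25 in ORMES6 A, B and C and 5.94 in ORMES7.

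Enzymes and cell-surface genes of connective tissue were mixed. ADAMTS1, a secreted metalloprotease that cleaves matrix proteoglycans, read 8.19, 9.17 and 10.001 in ORMES9, ORMES10 and ORMES13, against 6.74, 6.86 and 5.93 in ORMES6 A, B and C and 6.45 in ORMES7. Of 24 matrix enzymes and inhibitors 7 were higher on every array and 1 lower, the plasminogen activator PLAT (-0.75), and the median difference was 0.59. ADAMTS9, a relative of ADAMTS1, had a difference of 2.29, but only 2 of its 8 probe sets were higher on every array. Periostin, POSTN, a secreted protein of connective tissue, read 6.87, 9.45 and 10.35 in ORMES9, ORMES10 and ORMES13, against 5.91, 5.83 and 5.59 in ORMES6 A, B and C and 4.87 in ORMES7, a difference of 3.56. The platelet-derived growth factor receptor PDGFRA, an early marker of mesenchyme and primitive endoderm, read 10.97, 10.42 and 11.77 in ORMES9, ORMES10 and ORMES13, against 9.35, 9.18 and 8.43 in ORMES6 A, B and C and 6.99 in ORMES7. Both genes were brighter in EBs than in any line, at 11.71 for POSTN and 11.996 for PDGFRA. Of the 4 probe sets of POSTN 2 were higher on every array, and of the 3 of PDGFRA 2, with smallest differences of 0.11 and 0.15. Fibronectin, FN1, was bright throughout and read 13.18, 13.23 and 13.87 in ORMES9, ORMES10 and ORMES13, against 11.30, 11.36 and 11.01 in ORMES6 A, B and C and 11.20 in ORMES7, a difference of 2.22. FOXF1, a forkhead factor of the splanchnic mesoderm, read 7.38, 5.48 and 6.33 in ORMES9, ORMES10 and ORMES13, against 4.18, 4.47 and 4.83 in ORMES6 A, B and C and 4.17 in ORMES7. It was called Absent in ORMES7 and in the ORMES6 array with detection values.

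Of the 28 mesenchymal factors and fibroblast markers 11 were higher on every array, 4 of them 4-fold or more, and the median difference was 0.73. The list was not uniform, since ZEB1, a factor that represses epithelial genes, and VIM, the intermediate filament of mesenchymal cells, were lower on every array (-1.96 and -1.24). ZEB1 read 6.41, 8.35 and 8.08 in ORMES9, ORMES10 and ORMES13, against 9.64, 9.61 and 8.70 in ORMES6 A, B and C and 9.83 in ORMES7, and was higher still in EBs (11.02) and fibroblasts (12.03).

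The 10 markers of skin or feeder fibroblasts are all members of the collagen, proteoglycan and mesenchymal lists. COL1A1, COL3A1, DCN, LUM and FAP were higher on every array, while COL1A2, PRRX1, THY1, PDGFRB and TWIST1 overlapped. FAP, the surface protease that marks activated fibroblasts, read 5.29, 6.10 and 5.83 in ORMES9, ORMES10 and ORMES13, against 4.18, 4.97 and 4.71 in ORMES6 A, B and C and 4.09 in ORMES7, but 11.60 in EBs and 12.67 in fibroblasts. PRRX1, a homeobox factor of mesenchyme, was called Absent in ORMES9, where it read 4.91. The summed signal of the 10 markers was 8988, 16679 and 20974 in ORMES9, ORMES10 and ORMES13, against 3442, 3454 and 6264 in ORMES6 A, B and C and 5253 in ORMES7. It was 33590 in EBs and 42653 in fibroblasts. LUM, COL3A1 and DCN, already described, carried most of the ORMES13 sum. The part of fibroblast RNA in the differences was not tested.

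Of 29 secreted proteins of the liver and yolk sac 8 were higher on every array. FGB, the beta chain of fibrinogen, read 8.58, 10.18 and 11.18 in ORMES9, ORMES10 and ORMES13, against 4.69, 4.51 and 4.58 in ORMES6 A, B and C and 4.22 in ORMES7, and 5.01 in EBs and 4.36 in fibroblasts. FGB was called Absent in ORMES7 and in the ORMES6 array with detection values and Present in the other 3 lines. The difference was 5.58, between 9.98 ± 1.31 in ORMES9, ORMES10 and ORMES13 and 4.41 ± 0.27 in ORMES6 and ORMES7, with the wider spread among ORMES9, ORMES10 and ORMES13. The other probe set of FGB differed by 1.75, and with ORMES6 and ORMES7 this dim the difference depended on the offset, at 7.44 with an offset of 1 and 3.95 with 64. Transthyretin, TTR, the carrier of thyroid hormone and retinol-binding protein, read 8.72, 9.59 and 10.42 in ORMES9, ORMES10 and ORMES13, against 4.53, 5.31 and 4.47 in ORMES6 A, B and C and 4.30 in ORMES7. APOA1, the main protein of high-density lipoprotein, read 11.52, 9.15 and 11.86 in ORMES9, ORMES10 and ORMES13, against 6.44, 6.23 and 6.91 in ORMES6 A, B and C and 6.96 in ORMES7. ORMES10 was the lowest of the 3 lines for APOA1 and the middle one for FGB and TTR, so the order of the lines was not shared. FGA, the alpha chain of fibrinogen, read 7.60, 8.98 and 8.50 in ORMES9, ORMES10 and ORMES13, against 4.74, 5.55 and 4.75 in ORMES6 A, B and C and 4.37 in ORMES7.

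Of these 8 secreted proteins 5 were 4-fold or more higher, none of the 29 was lower on every array, and the median difference was 0.34. Among 9 hepatic and yolk sac markers, all of them members of the same list, albumin (ALB) was called Absent in all 5 lines, APOA2 overlapped, and alpha-fetoprotein (AFP) read 7.35, 9.43 and 9.57 in ORMES9, ORMES10 and ORMES13, against 6.26, 6.46 and 6.42 in ORMES6 A, B and C and 7.60 in ORMES7. The summed signal of the 9, which holds the genes just described, was 4131, 3893 and 8885 in ORMES9, ORMES10 and ORMES13, against 202, 245 and 250 in ORMES6 A, B and C and 355 in ORMES7. EBs (584) and fibroblasts (372) were closer to ORMES6 and ORMES7.

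Of 18 endoderm transcription factors 9 were higher on every array and 3 lower. HHEX, a homeobox factor of anterior endoderm, read 11.81, 11.61 and 10.81 in ORMES9, ORMES10 and ORMES13, against 8.74, 8.79 and 8.93 in ORMES6 A, B and C and 7.30 in ORMES7. FOXA1, a forkhead pioneer factor, read 9.69, 8.99 and 10.24 in ORMES9, ORMES10 and ORMES13, against 6.66, 6.60 and 6.05 in ORMES6 A, B and C and 6.66 in ORMES7. HHEX was highest in ORMES9 and FOXA1 in ORMES13. The other of the 2 probe sets of FOXA1 gave -0.01, and the median over both gave a difference of 1.54 in place of 3.09. Of the 9 higher factors 5 were 4-fold or more higher, among them HHEX, CDX2, FOXA1 and SOX17, and the 3 lower ones were NR5A2 (-1.61), ONECUT1 (-1.22) and FOXA3 (-0.56). The median difference was 0.56.

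Of 34 epithelial adhesion and junction genes 24 were higher on every array and none was lower. GRHL2, a grainyhead-like factor that drives epithelial junction genes, read 9.01, 8.68 and 8.80 in ORMES9, ORMES10 and ORMES13, against 4.47, 5.16 and 4.45 in ORMES6 A, B and C and 5.19 in ORMES7. ORMES9, ORMES10 and ORMES13 lay close together, and both EBs (4.92) and fibroblasts (4.97) were as low as ORMES6 and ORMES7. The difference was 3.89, between 8.83 ± 0.17 in ORMES9, ORMES10 and ORMES13 and 4.94 ± 0.35 in ORMES6 and ORMES7, though the other probe set of GRHL2 had a difference of 0.34. The tight junction protein CLDN7 read 8.42, 8.41 and 8.08 in ORMES9, ORMES10 and ORMES13, against 4.87, 5.14 and 5.25 in ORMES6 A, B and C and 4.98 in ORMES7. E-cadherin, CDH1, the adhesion molecule of epithelia, read 9.88, 9.39 and 9.42 in ORMES9, ORMES10 and ORMES13, against 6.28, 6.34 and 7.68 in ORMES6 A, B and C and 6.36 in ORMES7. Replicate C of ORMES6 was the highest of the low arrays for CDH1, and 1 of its 2 probe sets did not separate the sets (-0.11). KRT19, a keratin of simple epithelia, read 11.80, 10.95 and 11.92 in ORMES9, ORMES10 and ORMES13, against 7.99, 7.90 and 8.62 in ORMES6 A, B and C and 8.44 in ORMES7, with 9.89 in EBs and 4.22 in fibroblasts.

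The median difference of the epithelial list was 1.18, close to the 1.14 of the insulin-like growth factor (IGF) axis, and 7 genes passed the 4-fold limit. The 2 lists changed places in some settings, for example without ORMES9 (1.08 for the epithelial list and 1.31 for the IGF axis). By line the median difference to ORMES6 and ORMES7 was 1.45 for ORMES9, 0.94 for ORMES10 and 1.27 for ORMES13. ORMES9 stood highest of the 3 lines for this list and lowest for the collagens.

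**Figure D3:**
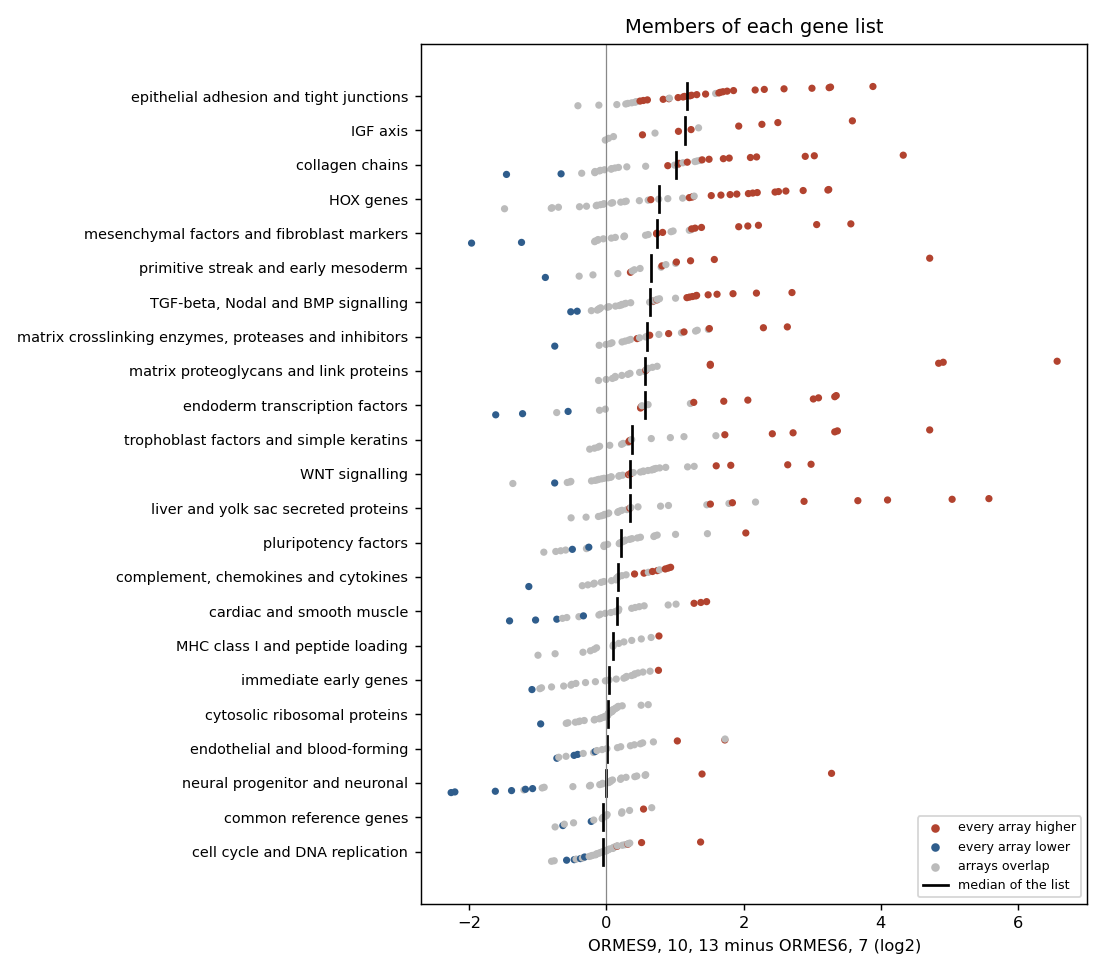
Difference of each member, ORMES9, ORMES10 and ORMES13 minus ORMES6 and ORMES7 (log2), for 23 gene lists, 1 point per gene, with list medians as black ticks. Points are red where every array was higher, blue where every array was lower and grey where arrays overlapped, and medians run from 1.18 for epithelial genes to -0.05 for cell cycle genes.

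Of 21 trophoblast genes 8 were higher on every array and none was lower. HAND1, a basic helix-loop-helix factor needed in mice for trophoblast giant cells and the heart, read 9.97, 9.53 and 11.40 in ORMES9, ORMES10 and ORMES13, against 5.66, 4.96 and 5.71 in ORMES6 A, B and C and 5.73 in ORMES7. It read 8.58 in EBs and 5.31 in fibroblasts, and the difference was 4.71. TFAP2A, a factor of surface ectoderm, neural crest and trophoblast, read 6.85, 10.04 and 10.82 in ORMES9, ORMES10 and ORMES13, against 5.83, 5.57 and 5.98 in ORMES6 A, B and C and 5.95 in ORMES7. ORMES9 was only 0.87 above the nearest low array for TFAP2A, while ORMES10 and ORMES13 were brighter than EBs. CDX2, a caudal-type factor of trophectoderm and hindgut, read 7.53, 7.82 and 9.87 in ORMES9, ORMES10 and ORMES13, against 5.33, 5.95 and 5.39 in ORMES6 A, B and C and 4.60 in ORMES7. CGA, the alpha subunit that chorionic gonadotropin shares with pituitary hormones, read 8.06, 7.07 and 9.55 in ORMES9, ORMES10 and ORMES13, against 5.40, 5.51 and 5.38 in ORMES6 A, B and C and 5.58 in ORMES7. Of the 4 probe sets of TFAP2A 2 separated the sets, and of the 2 of CGA 1. The 8 genes include 5 that were 4-fold or more higher, and the median of the list was 0.37. HAND1 also stands in the early mesoderm list and CDX2 in the endoderm list, so these counts are not separate.

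Of 16 primitive streak and early mesoderm genes 6 were higher on every array and 1, FGF8, was lower (-0.89), with a median of 0.65. TBXT, the brachyury factor of the primitive streak, read 8.41, 8.22 and 9.11 in ORMES9, ORMES10 and ORMES13, against 7.38, 7.11 and 8.05 in ORMES6 A, B and C and 7.61 in ORMES7, and was at 4.59 in EBs and 4.34 in fibroblasts. Its difference of 1.02 was far under that of HAND1. FGF4, a growth factor made by pluripotent cells, had a difference of 1.57. TBX6, a factor of paraxial mesoderm, was counted as higher although it was called Absent in all 5 lines, and its other probe set gave -0.05.

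Of 39 HOX genes, the homeobox factors that mark position along the body axis, 17 were higher on every array and none was lower. HOXA9 read 8.21, 8.11 and 10.32 in ORMES9, ORMES10 and ORMES13, against 5.29, 4.97 and 5.28 in ORMES6 A, B and C and 6.09 in ORMES7, and 11.64 in EBs. HOXB2 read 8.09, 7.89 and 8.998 in ORMES9, ORMES10 and ORMES13, against 4.77, 4.87 and 6.46 in ORMES6 A, B and C and 4.83 in ORMES7, and was called Absent in ORMES10 in spite of its signal. HOXC8 read 7.79, 7.47 and 9.15 in ORMES9, ORMES10 and ORMES13, against 5.21, 5.32 and 4.77 in ORMES6 A, B and C and 5.43 in ORMES7. ORMES13 was the highest line for all 3 genes. Of the 2 probe sets of HOXC8 1 separated the sets. Of the 17 genes 9 were 4-fold or more higher, and the median difference of the list was 0.76. They came from the HOXA, HOXB and HOXC clusters, and none of 9 measured HOXD genes was among the 17. The HOXD genes all overlapped between the sets, with differences from -1.48 for HOXD11 to 0.90 for HOXD1. The summed signal of the HOX list was 2855, 3097 and 7646 in ORMES9, ORMES10 and ORMES13. It was 3027, 3058 and 1777 in ORMES6 A, B and C and 1246 in ORMES7, so the sets overlapped in this sum. The number called Present was 17, 14 and 25 in ORMES9, ORMES10 and ORMES13, against 11 in the ORMES6 array with detection values and 8 in ORMES7.

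Among secreted signals, BMP2, a bone morphogenetic protein ligand, read 10.96, 9.83 and 10.87 in ORMES9, ORMES10 and ORMES13, against 8.46, 8.65 and 7.12 in ORMES6 A, B and C and 7.62 in ORMES7. Both of its probe sets were higher on every array. INHBA, which encodes the subunit of activin A, read 7.47, 7.32 and 7.60 in ORMES9, ORMES10 and ORMES13, against 6.06, 5.42 and 4.58 in ORMES6 A, B and C and 5.19 in ORMES7. BMP6 and the inhibitory SMAD6 had differences of 1.85 and 1.61. Each of them has 2 probe sets, of which 1 separated the sets, and the other gave -0.22 for BMP6 and 0.09 for SMAD6. Of 35 genes of TGF-beta, Nodal and BMP signalling 12 were higher on every array and 2 lower, TGFB1 (-0.52) and FSTL1 (-0.42), with a median of 0.63.

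In WNT signalling, the nuclear effector LEF1 read 8.41, 8.47 and 10.36 in ORMES9, ORMES10 and ORMES13, against 6.40, 6.10 and 5.52 in ORMES6 A, B and C and 6.18 in ORMES7, though 1 of its 5 probe sets alone separated the sets. RSPO3, a secreted amplifier of WNT signals, read 7.999, 8.24 and 9.59 in ORMES9, ORMES10 and ORMES13, against 5.49, 5.42 and 5.69 in ORMES6 A, B and C and 6.40 in ORMES7. The secreted inhibitor DKK1 (1.81) and the ligand WNT11 (1.60) were also higher on every array. Of 38 genes of the list 7 were higher on every array and 1, WNT7A, was lower (-0.75), with a median of 0.35.

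Of 12 genes of the insulin-like growth factor (IGF) axis 7 were higher on every array and none was lower, with a median of 1.14. IGFBP3, which binds IGFs in the circulation and in tissue, read 10.11, 10.74 and 12.11 in ORMES9, ORMES10 and ORMES13, against 7.89, 7.76 and 7.08 in ORMES6 A, B and C and 7.22 in ORMES7. IGFBP5, another IGF-binding protein, read 8.24, 9.63 and 10.66 in ORMES9, ORMES10 and ORMES13, against 7.43, 7.20 and 6.88 in ORMES6 A, B and C and 6.85 in ORMES7. The imprinted growth factor IGF2 was dim and read 6.13, 7.10 and 7.68 in ORMES9, ORMES10 and ORMES13, against 4.36, 4.74 and 5.26 in ORMES6 A, B and C and 4.61 in ORMES7, and 1 of its 3 probe sets separated the sets.

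Other genes among the 12 largest differences belong to none of these lists. DLK1, a membrane protein of the Notch ligand family encoded by an imprinted gene, read 10.76, 11.75 and 12.34 in ORMES9, ORMES10 and ORMES13, against 5.58, 5.95 and 6.72 in ORMES6 A, B and C and 7.63 in ORMES7. TGFBI, a secreted matrix protein induced by TGF-beta, read 9.47, 11.34 and 11.30 in ORMES9, ORMES10 and ORMES13, against 5.31, 5.31 and 5.78 in ORMES6 A, B and C and 6.56 in ORMES7. PDZK1, a scaffold protein of epithelial membranes, read 9.45, 9.50 and 10.72 in ORMES9, ORMES10 and ORMES13, against 6.39, 5.83 and 5.19 in ORMES6 A, B and C and 5.15 in ORMES7. Of the 4 probe sets of PDZK1 3 were higher on every array, and the smallest difference was 0.08. These 3 genes differed in where else they were bright: DLK1 read 11.50 in EBs and 4.88 in fibroblasts, TGFBI 12.56 in EBs and 12.87 in fibroblasts, and PDZK1 9.31 in EBs and 4.06 in fibroblasts. WFDC2, a secreted protein of glandular epithelia, read 11.96, 11.02 and 10.35 in ORMES9, ORMES10 and ORMES13, against 6.39, 6.39 and 7.83 in ORMES6 A, B and C and 6.87 in ORMES7, with ORMES9 highest. Only 1 of its 3 probe sets separated the sets.

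**Figure D4:**
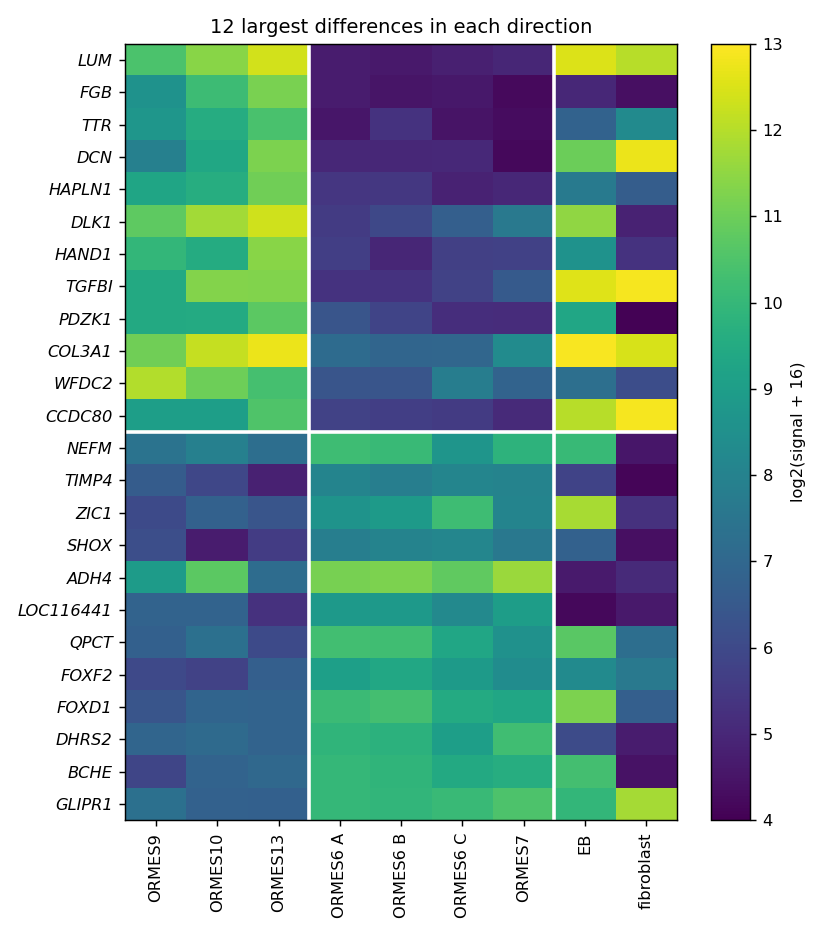
Level of the 12 genes with the largest difference in each direction on the 9 arrays, log2(signal + 16), with ORMES9, ORMES10 and ORMES13 at the left, then ORMES6 A to C and ORMES7, then EBs and fibroblasts. The upper genes, from LUM (6.57) to CCDC80 (4.17), are bright in the first 3 columns, and the lower ones, from NEFM (-2.21) to GLIPR1 (-3.28), in the next 4.

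The 14 genes that were lower had a median range of 1.07 over ORMES9, ORMES10 and ORMES13, against 0.85 over ORMES6 and ORMES7. Over all genes these ranges were 0.54 and 0.70. FOXD1, a forkhead factor of kidney stroma and forebrain, read 6.38, 6.90 and 6.86 in ORMES9, ORMES10 and ORMES13, against 10.15, 10.30 and 9.51 in ORMES6 A, B and C and 9.32 in ORMES7, and 11.23 in EBs. Butyrylcholinesterase, BCHE, read 5.87, 6.85 and 7.04 in ORMES9, ORMES10 and ORMES13, against 9.99, 9.89 and 9.45 in ORMES6 A, B and C and 9.59 in ORMES7. DHRS2, a short-chain dehydrogenase/reductase, read 6.92, 7.13 and 6.86 in ORMES9, ORMES10 and ORMES13, against 9.90, 9.80 and 9.05 in ORMES6 A, B and C and 10.26 in ORMES7. All 3 were still called Present in every line, so they were lower but detected. FOXF2, the paralogue of FOXF1, read 5.97, 5.78 and 6.74 in ORMES9, ORMES10 and ORMES13, against 9.09, 9.39 and 8.89 in ORMES6 A, B and C and 8.38 in ORMES7, the opposite direction to FOXF1. ADH4, an alcohol dehydrogenase that also oxidises retinol, read 8.94, 10.74 and 7.18 in ORMES9, ORMES10 and ORMES13, against 11.16, 11.22 and 10.82 in ORMES6 A, B and C and 11.66 in ORMES7. For ADH4, ORMES10 came within 0.08 of ORMES6 C, and both differentiated samples were low (4.64 in EBs and 5.07 in fibroblasts). GLIPR1 had the largest difference (-3.28), but only 1 of its 4 probe sets was lower on every array and the median over them gave 0.03.

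Neural genes went both ways. ZIC1, a zinc finger factor of the dorsal neural tube, read 6.02, 6.81 and 6.36 in ORMES9, ORMES10 and ORMES13, against 8.64, 8.92 and 10.19 in ORMES6 A, B and C and 8.07 in ORMES7. NEFM, a neurofilament subunit, read 7.42, 7.93 and 7.27 in ORMES9, ORMES10 and ORMES13, against 10.19, 10.10 and 8.70 in ORMES6 A, B and C and 9.83 in ORMES7. Only 1 of the 2 probe sets of ZIC1 and 1 of the 3 of NEFM were lower on every array, and the weakest gave -0.18 for ZIC1 and -0.13 for NEFM. FABP7, a fatty acid-binding protein of radial glia, read 5.55, 5.46 and 5.24 in ORMES9, ORMES10 and ORMES13, against 7.74, 7.73 and 7.64 in ORMES6 A, B and C and 6.36 in ORMES7. The other probe set of FABP7 went the opposite way (0.39), and the median over both gave -0.62 in place of -1.62. STMN2, a tubulin-binding protein of neurons, went the other way with 8.98, 10.25 and 9.69 in ORMES9, ORMES10 and ORMES13, against 5.24, 5.36 and 6.03 in ORMES6 A, B and C and 7.17 in ORMES7. Of the 2 probe sets of STMN2 1 separated the sets. Of 30 neural genes 6 were lower on every array and 2 higher, with a median of -0.01, which turned to between 0.00 and 0.06 in 4 of the other settings tried.

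The remaining lists had medians of 0.21 or less. Of 28 pluripotency factors 1 was higher on every array, the Kruppel-like factor KLF5 (2.03), and 2 were lower, POU5F1 and VRTN (-0.26). SOX2 read 12.01, 12.61 and 12.20 in ORMES9, ORMES10 and ORMES13, against 12.03, 12.07 and 12.58 in ORMES6 A, B and C and 12.39 in ORMES7. NANOG read 12.09, 12.11 and 11.27 in ORMES9, ORMES10 and ORMES13, against 11.76, 11.80 and 12.36 in ORMES6 A, B and C and 12.25 in ORMES7, with ORMES13 the lowest array. The median of the list was 0.21 and became -0.01 without ORMES9. Of 37 cell cycle genes 4 were higher, among them cyclin D1 (CCND1, 1.37), and 4 lower, with a median of -0.05. Of all genes 10.6% were higher and 6.58% lower on every array. Of 35 ribosomal protein genes 1 was lower, RPL7 (-0.96, with 1 of its 4 probe sets lower on every array), and the median was 0.02. The probe set read for RPL7 was dim, at 5.73 to 7.64 on the ES arrays, where the list had median levels of 12.8 to 13.3. Of 15 common reference genes 1 was higher and 2 lower, with a median of -0.05.

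Among the lists that follow, the shares are to be read beside 10.6% of all genes higher and 6.58% lower on every array. Of 24 cardiac and smooth muscle genes 3 were higher on every array, TNNT2 (1.46), TNNC1 (1.38) and MYLK (1.28), and 4 were lower, led by the smooth muscle actin ACTG2 (-1.41). Only 2 of the 5 probe sets of MYLK were higher on every array, and the smallest difference was -0.41. Of the 2 probe sets of ACTG2 1 was lower on every array, and the other gave -0.0016. Of 21 endothelial and blood-forming genes 2 were higher, GATA2 (1.73) and RUNX1 (1.04 in its brightest probe set and -0.11 in the median over its 11 probe sets), and 4 were lower. Of 24 genes of complement, chemokines and cytokines 7 were higher and 1, C1S, was lower (-1.13), with a median of 0.17. C1S was dim, only 1 of its 3 probe sets was lower on every array, and the median over them gave -0.15. Of 14 genes of MHC class I and peptide loading 1 was higher, and of 23 immediate early genes 1 was higher and 1 lower. The medians of the endothelial, MHC class I, immediate early, cell cycle, ribosomal and reference lists each turned sign in 1 or more of the other settings tried.

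The 163 higher genes were not equally high in the 3 lines. ORMES13 was the highest in 109 of them (66.9%, against 33.7% of all genes). ORMES9 was the highest in 41 (25.2%, against 31.7% of all genes) and ORMES10 in 13 (7.98%, against 34.6%). The 163 genes were selected by signal on these same arrays, so nothing is read from these shares. The median difference of the 163 genes to ORMES6 and ORMES7 was 2.49 for ORMES9, 2.34 for ORMES10 and 3.22 for ORMES13. The median range within the set was 1.44 log2 units over ORMES9, ORMES10 and ORMES13, against 0.97 over ORMES6 and ORMES7 and 0.72 over the ORMES6 replicates. Over all genes these 3 ranges were 0.54, 0.70 and 0.54. The range of ORMES9, ORMES10 and ORMES13 is over 3 arrays and that of ORMES6 and ORMES7 over 4. The 163 genes were selected to be high in the first set, so nothing is read from their wider range. The median gap between the lowest array of ORMES9, ORMES10 and ORMES13 and the highest of ORMES6 and ORMES7 was 1.42. With 1 array per line, a difference between ORMES9, ORMES10 and ORMES13 cannot be told apart from a difference between cultures.

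The lists differed in how they ordered the lines. Collagens had median differences of 0.24 for ORMES9, 1.00 for ORMES10 and 1.06 for ORMES13. HOX genes had 0.51 for ORMES9, 0.69 for ORMES10 and 1.26 for ORMES13. The pluripotency factors ran the other way, with 0.63 for ORMES9, 0.13 for ORMES10 and -0.11 for ORMES13. ORMES13 thus had the highest medians for collagens and HOX genes and the lowest for the pluripotency factors.

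**Figure D5:**
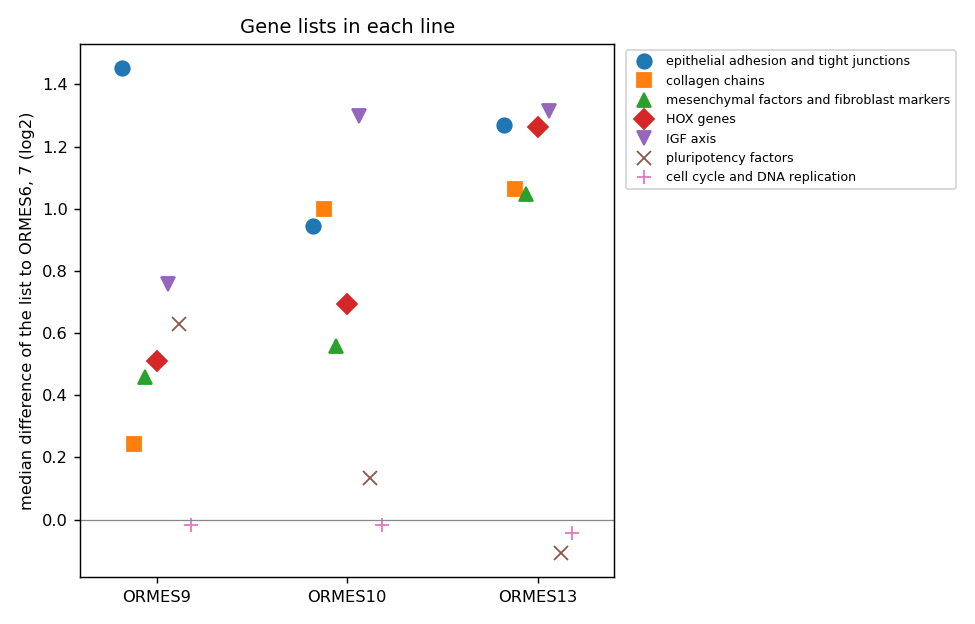
Median log2 difference of 7 gene lists to the mean of ORMES6 and ORMES7, shown for each of ORMES9, ORMES10 and ORMES13, 1 array per line, with symbols shifted sideways to keep them apart. HOX genes range from 0.51 in ORMES9 to 1.26 in ORMES13 and pluripotency factors from 0.63 in ORMES9 to -0.11 in ORMES13, while cell cycle genes stay near 0.

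Detection calls were read for the same genes. Of the 163 higher genes 146 were Present in all of ORMES9, ORMES10 and ORMES13 (89.6%, against 53.7% of all genes). Absent in both ORMES7 and the ORMES6 array with detection values were 65 (39.9%, against 37.4% of all genes). A total of 48 met both conditions (29.4%, against 1.13% of all genes). Present in all 5 lines were 62 of the 163, against 9838 of all 19782 genes. The 163 were selected by signal on these same arrays, so nothing is read from these shares. Of the 14 lower genes all were Present in ORMES6 and ORMES7, against 10423 of all 19782 genes. Absent in all of ORMES9, ORMES10 and ORMES13 were 3 of the 14, against 6338 of all genes. The 14 were selected by signal as well, so nothing is read from these counts.

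The EB and fibroblast arrays show where else the 163 genes are bright. For 51 of them (31.3%) both samples came within 1 log2 unit of the mean of ORMES9, ORMES10 and ORMES13 or above it, as for LUM and COL3A1. For 33 (20.2%) only EBs did, as for DLK1, and for 18 (11%) only fibroblasts did. For 61 (37.4%) neither did, as for FGB, HAPLN1 and GRHL2. Of all genes 76.4% fell in the class of both samples, 14% in that of EBs only, 3.37% in that of fibroblasts only and 6.25% in this last class. The 163 genes were selected for a high mean in ORMES9, ORMES10 and ORMES13, the reference here, so nothing is read from these shares. For the 14 lower genes the reference was instead the mean of ORMES6 and ORMES7, and 7 of them were bright in neither sample. The share of all genes was not computed on that reference, so nothing is read from this count.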

How the data were processed

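Total RNA was hybridised to Affymetrix Rhesus arrays, 9 in all. The authors deposited linear intensity values per probe set, which MAS5 had made per the labels, and their scaling was kept. The authors also deposited detection p-values, for 1 array of ORMES6 and for the other 4 lines. Which ORMES6 replicate they belong to is not given in the sources used here. A further 528 columns of per-sample values were not used.

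Of 52865 probe sets, 99 control, 3 incomplete and 36 Y-linked ones were left out. Symbols are those of the deposited annotation, 1027 probe sets being renamed through a table of current macaque symbols or a short hand table, and 12068 probe sets were unnamed. The number of arrays limits the precision. No test was run and no p-value computed, since the sets of lines, the genes and the 23 lists were chosen with earlier results of these data known. The genes named were LUM, HAPLN1, COL3A1 and FGB, the 12 largest differences each way, up to 4 members of each list with the largest differences among those whose arrays do not overlap (2 where there are none), and POU5F1, SOX2 and NANOG. Other genes were named after their values were seen. Counts were checked on simulated data. Python 3.11.15, pandas 2.3.3 and matplotlib 3.10.9 were used. Alternatives varied the offset, scaling, probe set rule, filters, fold limit and arrays included.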

Additional observations from a re-analysis of the deposited data

How the results depend on the processing

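The count of genes 4-fold or more higher on every array was 163, and that of lower ones 14. With an offset of 1 the counts were 321 higher and 44 lower, and with an offset of 64 they were 79 and 7. The median over the probe sets of a gene gave 83 higher and 10 lower, single probe sets 246 and 21, and a 2-fold limit 717 and 180. Quantile normalization gave 156 and 17, centring each array 151 and 17, and the 3 ORMES6 arrays as 1 mean 166 and 14. Without ORMES6 replicates A and B, the arrays with low spikes, 147 genes were higher and 14 lower, of which 133 and 13 were among the 163 and 14. Leaving out 1 array at a time gave 142 to 209 higher and 14 to 32 lower, with 32 lower without ORMES7 and 31 without ORMES10. Under the median over probe sets 6 named genes changed sign: GLIPR1 (0.0289), HPRT1 (0.0467), LMO2 (0.26), MMP11 (-0.13), RUNX1 (-0.11) and TAPBP (-0.0336). The cause was not tested. No paired analysis was possible because the labels give replicate letters for ORMES6 alone and no test was run.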

Other observations

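Further genes that separated the sets, named after their values were seen, include ISL1, a LIM homeobox factor of cardiac progenitors and motor neurons, and GABRP, a subunit of the GABA type A receptor found in epithelia. ISL1 read 8.94, 8.72 and 9.81 in ORMES9, ORMES10 and ORMES13, against 6.43, 6.13 and 5.79 in ORMES6 A, B and C and 5.27 in ORMES7. GABRP read 7.01, 8.74 and 10.20 in ORMES9, ORMES10 and ORMES13, against 4.54, 4.84 and 4.74 in ORMES6 A, B and C and 4.67 in ORMES7, and was called Absent in ORMES9 in spite of its signal. EBs read 8.41 for ISL1 and 5.85 for GABRP.

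Of 12068 probe sets with no gene name, 40 were 4-fold or more higher on every array and 5 lower, where 246 and 21 of all 52727 probe sets were. The share of higher ones was thus no larger than over all probe sets. The largest difference of all belonged to one of them, at 7.06. It read 12.55, 13.76 and 14.17 in ORMES9, ORMES10 and ORMES13, against 6.35, 6.51 and 7.09 in ORMES6 A, B and C and 6.22 in ORMES7. EBs read 12.95 and fibroblasts 8.23.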
